A study of Mus musculus with 6 samples.

Results

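The genes described here are 32 genes of the endoplasmic reticulum (ER): the chaperones and isomerases that fold secretory and membrane proteins, the translocation channel, the stress sensors and the machinery that removes misfolded proteins. They were given as a list of gene symbols, of 20659 genes named on the array, and all 32 had at least 1 probe (42 probes). They were compared between C2C12 cells in which siRNA was used to knock down lncMGPF, a long noncoding RNA (si-lncMGPF, 3 samples) and C2C12 cells transfected with si-NC (3 samples). C2C12 is an established mouse myoblast line that fuses into myotubes, and cells of both groups had been differentiating for 2 days. Total RNA was labelled with Cy3 and read on 1-colour Agilent arrays, so the comparison asks whether knocking down lncMGPF changes the transcripts of the protein-folding compartment. Whether the 3 replicates of a group came from different cultures is not in the labels. The p-values therefore reflect the spread among these samples alone, and that spread may be technical.

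Proteins bound for the cell surface or for secretion enter the ER through the Sec61 channel and fold there with the help of chaperones, lectins and disulfide isomerases. When unfolded proteins build up, 3 membrane sensors encoded by Ern1, Eif2ak3 and Atf6 start the unfolded protein response (UPR), which slows translation and raises transcription of chaperone and degradation genes. Myoblasts are known to use this response as they differentiate, when they expand their membrane and secretory systems.

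Chaperone genes are known to be switched on through the ER stress element (ERSE), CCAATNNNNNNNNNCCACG, where ATF6 binds together with the factor NF-Y, and through the shorter ERSE-II, ATTGGNCCACG. These elements were looked for on both strands in the RefSeq promoter windows of build GRCm38.p6, which run from 250 bases before to 50 bases after the transcription start. Windows were found for 27 of the 32 genes. An ERSE lay in the window of 9 of these 27 genes (33.3%), against 37 of all 27025 genes with a window (0.137%). ERSE-II, added to the search after the values had been seen, lay in 2 of the 27 (7.41%), against 0.0444% of all genes. The UPR element TGACGTGG was in 0 of the 27 windows and in 0.714% of all genes. No ERSE overlapped an ERSE-II, since no gene of the 27 held both. The ERSE was looked for because it is known from chaperone genes, so its higher share in this list was foreseeable. A match describes the letters of the window and does not show that a factor binds there. The elements are shown because they are the known stress-response sequence that 11 of the 27 windows hold (the other 16 hold neither), with the fixed bases in capitals and each read 5′ to 3′ on the strand where it matches.
Calr (ERSE, opposite strand): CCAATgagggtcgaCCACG
Canx (ERSE, strand of the gene): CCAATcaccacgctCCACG
Creld2 (ERSE, opposite strand): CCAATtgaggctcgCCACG
Derl3 (ERSE, opposite strand): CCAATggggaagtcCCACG
Dnajc3 (ERSE, strand of the gene): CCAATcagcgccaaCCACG
Hsp90b1 (ERSE, strand of the gene): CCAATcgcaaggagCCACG
Hsp90b1 (ERSE, opposite strand): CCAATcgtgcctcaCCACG
Hspa5 (ERSE, strand of the gene): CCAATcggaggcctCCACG
Pdia6 (ERSE, strand of the gene): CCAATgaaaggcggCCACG
Syvn1 (ERSE, strand of the gene): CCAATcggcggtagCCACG
Dnajb11 (ERSE-II, strand of the gene): ATTGGcCCACG
Herpud1 (ERSE-II, strand of the gene): ATTGGgCCACG

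Counted from the start, the ERSE of Hspa5 ended at base -47, and that of Calr began at base -162. Hsp90b1 was the gene with 2 ERSEs, 1 on each strand. The windows of Hspa5 and Hsp90b1, which encode the main Hsp70 and Hsp90 chaperones of the ER, are given whole, on the strand of the gene, with the fixed bases of each ERSE in capitals (on the opposite strand these read CGTGG and ATTGG). The Hspa5 window is chr2:34771840-34772139 on the plus strand, and the Hsp90b1 window is chr10:86705395-86705694 on the minus strand.
Hspa5: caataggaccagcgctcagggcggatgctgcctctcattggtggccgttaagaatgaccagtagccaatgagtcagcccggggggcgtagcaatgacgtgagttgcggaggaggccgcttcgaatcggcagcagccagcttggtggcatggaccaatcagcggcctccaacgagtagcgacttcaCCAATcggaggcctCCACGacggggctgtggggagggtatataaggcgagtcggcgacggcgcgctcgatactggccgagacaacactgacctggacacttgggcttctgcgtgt
Hsp90b1: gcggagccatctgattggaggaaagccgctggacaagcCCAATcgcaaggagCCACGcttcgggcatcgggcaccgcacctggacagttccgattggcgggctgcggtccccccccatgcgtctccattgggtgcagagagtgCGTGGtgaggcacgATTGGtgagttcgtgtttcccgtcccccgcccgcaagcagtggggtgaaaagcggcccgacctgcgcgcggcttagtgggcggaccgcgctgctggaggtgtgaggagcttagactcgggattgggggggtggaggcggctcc

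**Figure D1:**
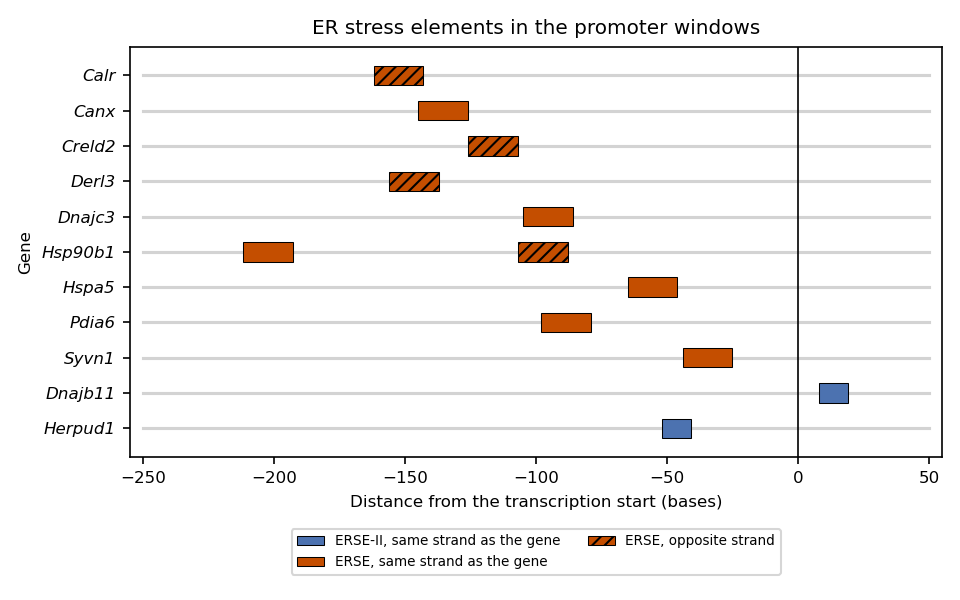
Position of each ERSE and ERSE-II in the promoter windows of the 11 genes that hold one, in bases from the transcription start (x axis), 1 gene per row. Boxes are drawn to the length of the element, hatched where it lies on the opposite strand. The ERSEs lie between base -212 and base -26, and the ERSE-II of Dnajb11 lies after it.

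Signals are given as log2 of the scanner's processed signal relative to the 75th percentile of the same array (log2 normalised signal), so 0 is the 75th percentile and 1 unit is a 2-fold step. This scaling makes the 75th percentile equal on all arrays and would hide a shift of most transcripts together. The 75th percentile was 923.0, 580.2 and 492.1 intensity units on si-lncMGPF replicates 1, 2 and 3, and between 688.2 and 930.7 on the si-NC arrays. By their scan identifiers, si-lncMGPF replicate 1 lay on the same slide as all 3 si-NC arrays (slide 1), and si-lncMGPF replicates 2 and 3 lay on another (slide 2). Signal of negative control spots was 37.3 and 42.5 units on slide 2, against 20.1 to 21.8 on slide 1. Muscle identity was clear in both groups, since 11 of 11 muscle markers were well above background on all 6 arrays, led by Actc1, Myh3 and Acta1. Their summed signal was 125.1 to 139.9 times the 75th percentile on si-lncMGPF arrays and 126.8 to 136.3 times on si-NC arrays. Of other cell types, the 4 leukocyte markers on the array (3 above background on all 6 arrays) summed to 1.90 to 2.89 in si-lncMGPF and 3.37 to 3.97 in si-NC. The 4 adipocyte markers (0 above background on all 6) summed to 0.0432 to 0.0524 in si-lncMGPF and 0.0377 to 0.0445 in si-NC. The 4 endothelial markers (2 on all 6) summed to 1.49 to 1.62 in si-lncMGPF and 1.25 to 1.64 in si-NC, and the 5 fibroblast markers (3 on all 6) to 0.567 to 0.698 in si-lncMGPF and 0.635 to 0.659 in si-NC. Their part in the results was not tested. Adipoq, Lep, Cdh5 and Tie1 were above background on no array. No probe carried the name lncMGPF, so whether its transcript was lowered was not checked. In RNA from whole cultures, fewer cells of a type and less RNA per cell cannot be told apart.

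None of the ER genes passed the test. Testing required a probe to stand well above background on all 3 arrays of one group or the other, and 31 of the 32 genes had such a probe. All but 1 of them, Hyou1, were above background on all 6 arrays. Limma called 0 of these 31 at an adjusted p below 0.05 (Benjamini-Hochberg over 24661 tested probes), where 0.105% of all tested probes and 0.147% of the 14265 tested named genes were called. At an unadjusted p below 0.05 there were 2 of the 31, P4hb and Edem2, against 14.2% of all named genes. The smallest adjusted p among the 31 was 0.282, for P4hb. A gene is represented by its brightest tested probe, and other probes are named as such.

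The log2 changes of the 31 genes ran from -0.42 to 0.53, with a median of 0.05, and 21 of them were positive (67.7%). Over all 14265 named genes the median was 0.02 and 54.0% were positive. With slide left out of the fit, the 95% interval lay within a 1.5-fold change in either direction for 24 of the 31 genes (77.4%, against 73.1% of all named genes), and within a 2-fold change for 29 of 31 (93.5%, against 92.2%). Within a 1.25-fold change lay 11 of 31 (35.5%, against 20.4%). These intervals are not adjusted for the number of genes, and they do not cover a difference between slides. With slide as a block 11 of the 31 genes changed sign, so the intervals do not bound a change due to the siRNA alone. The 2 genes whose interval reached past a 2-fold change were Edem2 and Hyou1, both on dim probes.

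**Figure D2:**
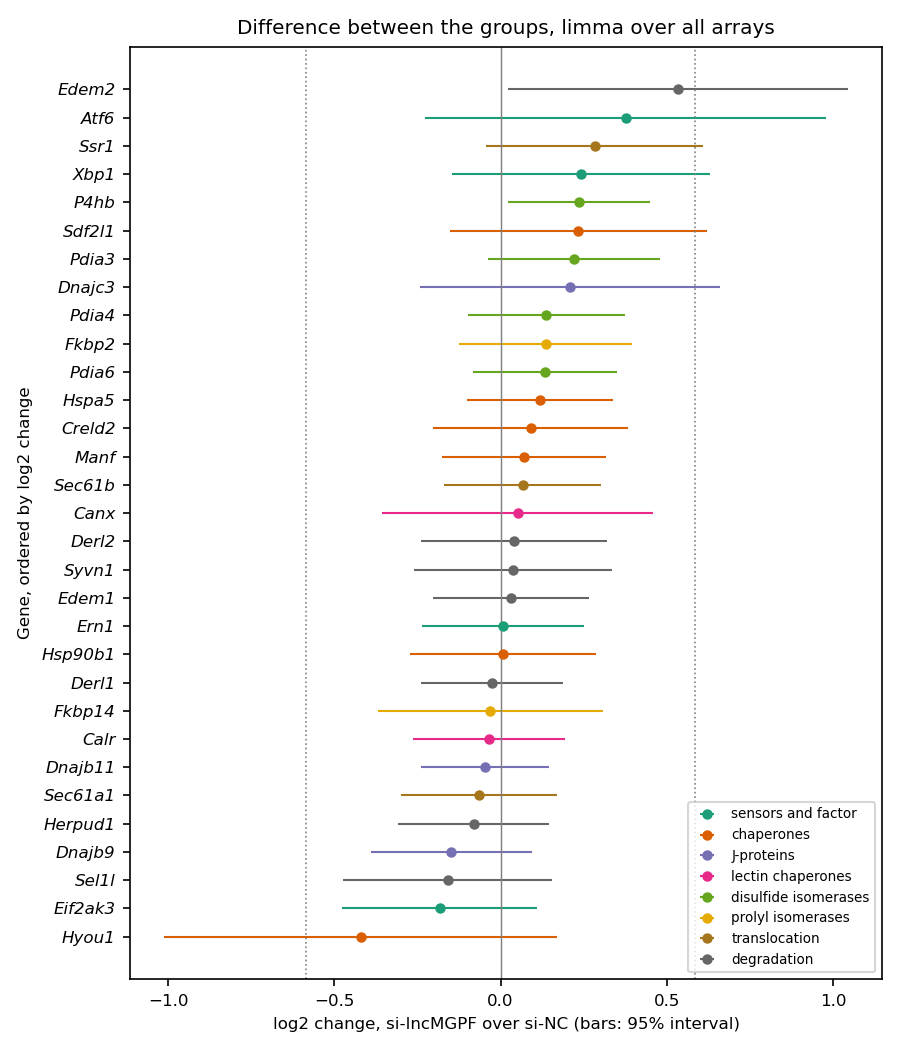
Log2 change of each of the 31 tested genes, si-lncMGPF over si-NC (x axis), ordered by size, with the 95% interval of limma over all 6 arrays as bars and the role of the gene as colour. Dotted lines mark a 1.5-fold change. Intervals of 29 genes include 0, and those of P4hb and Edem2 begin just above it.

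The sensors and the factor Xbp1 showed no common direction. Ern1 encodes IRE1, which splices the Xbp1 transcript. Its log2 normalised signal was -2.60, -2.86 and -2.61 on si-lncMGPF replicates 1, 2 and 3, against -2.71, -2.69 and -2.68 on si-NC replicates 1, 2 and 3. The groups overlapped, with a log2 change of 0.01 (SE 0.10, 95% interval -0.24 to 0.25, adjusted p = 0.975 by limma). Eif2ak3 encodes PERK, which phosphorylates the initiation factor eIF2α and slows translation. It was at 1.11, 1.48 and 1.33 on the si-lncMGPF arrays, against 1.39, 1.61 and 1.47 on the si-NC arrays. Replicates 1 and 3 of si-lncMGPF were below all si-NC arrays and replicate 2 lay among them, and the log2 change was -0.18 (SE 0.12, adjusted p = 0.48 by limma). Atf6 encodes the sensor that is cut in the Golgi to release a transcription factor. Its signal was -1.49, -2.34 and -1.70 in si-lncMGPF and -1.97, -2.56 and -2.12 in si-NC. The 3 si-NC arrays themselves differed by over 0.5, and the log2 change of 0.38 had an SE of 0.25 (95% interval -0.23 to 0.98).

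Xbp1 encodes the transcription factor that IRE1 activates by splicing its mRNA, and 1 probe measured it, so spliced and unspliced forms were not told apart here. Its log2 normalised signal was 3.88, 4.46 and 4.37 in si-lncMGPF and 3.96, 4.09 and 3.94 in si-NC. The slide 2 arrays were above every si-NC array, and the slide 1 si-lncMGPF array was below every one. The log2 change over all arrays was 0.24 (SE 0.16, 95% interval -0.15 to 0.63, adjusted p = 0.479 by limma). Within slide 1 the difference from the si-NC mean was -0.11, and on slide 2 it was 0.42. With si-lncMGPF replicate 1 left out, group and slide are the same split, and Xbp1 then passed the threshold (log2 change 0.42, adjusted p = 0.0274 by limma), as did 16.6% of all tested probes.

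Among the chaperones, Hspa5 (BiP, the ER Hsp70 and the usual readout of ER stress) had a log2 normalised signal of 5.29, 5.46 and 5.46 on the si-lncMGPF arrays, against 5.23, 5.32 and 5.30 on the si-NC arrays. The slide 2 arrays were above the si-NC range and replicate 1 lay inside it. The fitted change was 1.09-fold (95% interval 0.932 to 1.26), a log2 change of 0.12 (SE 0.09, adjusted p = 0.537 by limma). Hsp90b1 (GRP94, the ER Hsp90) was at 5.27, 5.62 and 5.59 in si-lncMGPF and at 5.45, 5.53 and 5.46 in si-NC. As for Xbp1, slide 2 was above and slide 1 below the si-NC arrays, and the mean difference was 1.01-fold (95% interval 0.827 to 1.22). Its direction was negative after quantile normalization, so no direction can be given.

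Creld2 and Manf, small secreted or luminal proteins that ER stress induces, showed the same split. Creld2 was at 2.52, 2.88 and 2.89 in si-lncMGPF and at 2.64, 2.70 and 2.67 in si-NC. Manf was at 3.33, 3.61 and 3.56 in si-lncMGPF and at 3.40, 3.45 and 3.45 in si-NC. In both genes the 3 si-NC arrays lay within 0.1 of each other, while si-lncMGPF replicate 1 was below them and replicates 2 and 3 above them. Sdf2l1, a partner of the ER J-proteins, ran the other way, at -0.26, -0.81 and -0.40 in si-lncMGPF and -0.59, -0.87 and -0.72 in si-NC. Its highest array was si-lncMGPF replicate 1, and the log2 change was 0.23 (SE 0.16).

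Hyou1 (GRP170, an Hsp70-like chaperone that exchanges nucleotide on BiP) was measured by 1 dim probe. It was well above background on 1 of 3 si-lncMGPF arrays and on 3 of 3 si-NC arrays, so it was tested because of its si-NC signal. The log2 normalised signal was -4.93, -5.68 and -5.81 in si-lncMGPF and -4.80, -5.26 and -5.10 in si-NC. The slide 2 arrays were low and replicate 1 lay within the si-NC range. The log2 change of -0.42 (SE 0.25, adjusted p = 0.428 by limma) came with 0.12 within slide 1 and -0.69 on slide 2. Negative control spots were brighter on slide 2, and their part in the values of this dim probe was not tested. Without si-lncMGPF replicate 1 Hyou1 also passed (log2 change -0.69, adjusted p = 0.0368 by limma). In that fit group and slide are the same split, and 16.6% of all tested probes passed.

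The J-proteins pass clients to BiP. Dnajb9 (ERdj4) was at 0.73, 0.97 and 0.99 on si-lncMGPF arrays, against 1.06, 1.07 and 0.999 on si-NC arrays. It was the only one of the 31 genes whose si-lncMGPF arrays all lay below the si-NC arrays, though the nearest arrays of the groups almost touched, and 12.7% of all named genes had that order. The log2 change was -0.15 (SE 0.10, adjusted p = 0.489 by limma), and a second, dimmer probe of Dnajb9 had 0.13. Dnajb11 (ERdj3) had the smallest SE of the list. Its signal was 2.93, 2.90 and 2.88 in si-lncMGPF and 2.92, 2.93 and 2.996 in si-NC, a log2 change of -0.05 (95% interval -0.24 to 0.15). Dnajc3 (p58IPK), which also restrains PERK, was at -0.62, -1.29 and -0.84 in si-lncMGPF and -0.93, -1.26 and -1.18 in si-NC, and the groups overlapped.

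Of the lectin chaperones, which hold newly made glycoproteins, Canx (calnexin, in the membrane) split by slide more widely than its luminal partner Calr (calreticulin). Canx was at 3.78, 4.39 and 4.33 in si-lncMGPF and at 4.07, 4.17 and 4.09 in si-NC. Calr was at 4.51, 4.65 and 4.74 in si-lncMGPF and at 4.62, 4.72 and 4.67 in si-NC. The log2 changes were 0.05 (95% interval -0.36 to 0.46) for Canx and -0.04 (95% interval -0.26 to 0.19) for Calr. For Canx the difference was -0.33 within slide 1 and 0.25 on slide 2, so its mean near 0 joins opposite values.

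The disulfide isomerases form and reshuffle disulfide bonds. All 4 had a positive difference on both slides, as had 11 of the 31 genes and 3621 of the 14265 named genes. P4hb (PDI) was at 4.18, 4.18 and 4.34 on the si-lncMGPF arrays, against 4.03, 3.96 and 3.99 on the si-NC arrays. Every si-lncMGPF array was above every si-NC array, the only case of this order among the 31 genes, where 9.70% of all named genes showed it. The change was 1.18-fold (95% interval 1.02 to 1.36), a log2 change of 0.24 (SE 0.09, adjusted p = 0.282 by limma), with 0.18 within slide 1 and 0.26 on slide 2. Pdia3 (ERp57), which works with calnexin and calreticulin, was at 4.20, 4.04 and 4.35 in si-lncMGPF and at 4.05, 3.93 and 3.95 in si-NC. The groups overlapped at 1 pair of arrays, and the log2 change was 0.22 (SE 0.11, adjusted p = 0.365 by limma), with 0.23 within slide 1 and 0.22 on slide 2. Pdia4 (ERp72) was at 0.96, 0.71 and 0.86 in si-lncMGPF and 0.75, 0.65 and 0.73 in si-NC, with a log2 change of 0.14 (SE 0.10). Pdia6 was at 4.24, 4.41 and 4.41 in si-lncMGPF and 4.24, 4.25 and 4.18 in si-NC, with a log2 change of 0.13 (SE 0.09). Its difference was 0.02 within slide 1 and 0.19 on slide 2. The dimmer probe of Pdia6 had a log2 change of -0.03, with -0.01 within slide 1 and -0.04 on slide 2. None of the 4 passed the threshold, and their median log2 change was 0.18.

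**Figure D3:**
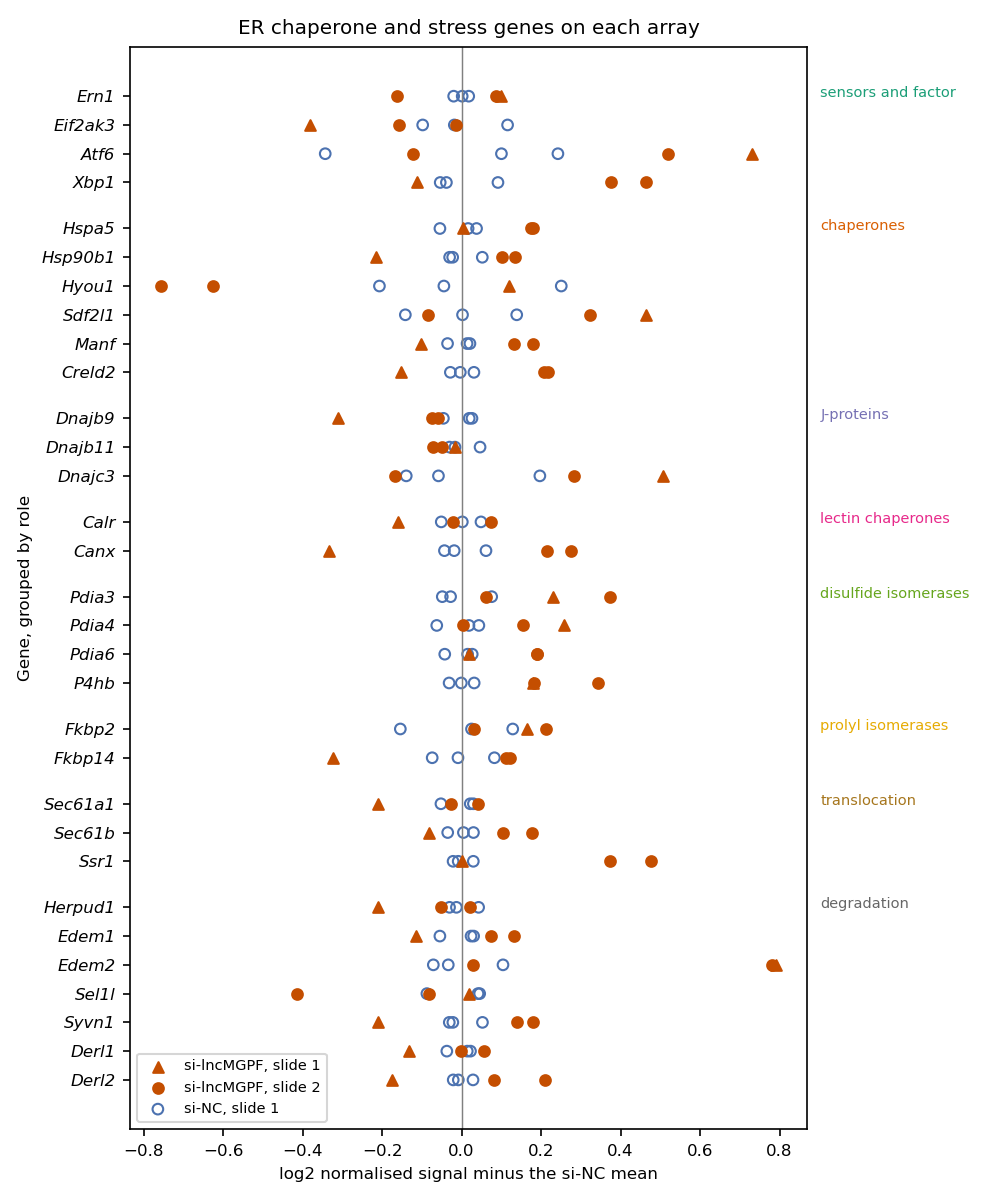
Log2 normalised signal of each tested gene on each array, minus the mean of the 3 si-NC arrays (x axis), with genes grouped by role (rows). Filled symbols are si-lncMGPF arrays (triangles slide 1, circles slide 2) and open circles si-NC arrays. For 10 genes the triangle is below all of them and both circles are above them.

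The prolyl isomerases Fkbp2 and Fkbp14, which speed the isomerisation of proline bonds in folding chains, did not pass the test. Fkbp2 was at 1.42, 1.28 and 1.47 in si-lncMGPF and 1.38, 1.099 and 1.28 in si-NC, with a log2 change of 0.14 (SE 0.11). Fkbp14, which acts on collagens, was at 1.23, 1.67 and 1.68 in si-lncMGPF and 1.48, 1.64 and 1.55 in si-NC, with a log2 change of -0.03 (SE 0.14). Its dimmer probe had 0.21, and the direction of the gene turned under several settings.

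At the translocation channel, Sec61a1 encodes the pore subunit and Sec61b a small accessory subunit. Sec61a1 was at 4.87, 5.12 and 5.05 in si-lncMGPF and 5.03, 5.11 and 5.10 in si-NC. Sec61b was at 5.42, 5.60 and 5.68 in si-lncMGPF and 5.47, 5.53 and 5.50 in si-NC. Both overlapped between groups, with log2 changes of -0.06 (SE 0.10) and 0.07 (SE 0.10), and a second probe of Sec61b had 0.15. Ssr1, a subunit of the translocon-associated protein complex, was at 3.43, 3.91 and 3.80 in si-lncMGPF and 3.42, 3.46 and 3.41 in si-NC. Replicate 1 of si-lncMGPF lay within the si-NC range, and the slide 2 arrays stood above it. The log2 change was 0.28 (SE 0.14, adjusted p = 0.359 by limma), with 0.00 within slide 1 and 0.42 on slide 2. The 2 other probes of Ssr1 had 0.15 and -0.05, and on slide 2 they had 0.13 and -0.13, so the probes of Ssr1 differed on that slide. Without si-lncMGPF replicate 1 the brightest probe passed (log2 change 0.42, adjusted p = 0.0193 by limma). Group and slide are then the same split, and 16.6% of all tested probes passed.

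Genes of ER-associated degradation recognise misfolded proteins and pass them to the proteasome, and 4 of the 7 tested had a positive change. Edem2, which starts the trimming of mannose on misfolded glycoproteins, had the largest change of the 31 genes in the main fit, on a dim probe. After another background correction (normexp) its log2 change was 0.24, and that of Atf6 was larger, at 0.33. The signal of Edem2 was -3.38, -4.14 and -3.39 in si-lncMGPF and -4.07, -4.24 and -4.21 in si-NC. Replicates 1 and 3 of si-lncMGPF were high, and replicate 2 lay within the si-NC range. The change was 1.45-fold (95% interval 1.02 to 2.06), a log2 change of 0.53 (SE 0.21, adjusted p = 0.299 by limma), with 0.79 within slide 1 and 0.40 on slide 2. Edem1, a related lectin-like protein, was at 1.02, 1.26 and 1.20 in si-lncMGPF and 1.16, 1.08 and 1.15 in si-NC.

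Syvn1 (HRD1) is the ubiquitin ligase of the pathway and Sel1l its partner. Syvn1 was at 2.72, 3.07 and 3.11 in si-lncMGPF and 2.91, 2.99 and 2.90 in si-NC, again with slide 1 below and slide 2 above the si-NC arrays. Sel1l was at -3.00, -3.44 and -3.11 in si-lncMGPF and -2.98, -3.11 and -2.98 in si-NC, and its low value was on replicate 2. The log2 changes were 0.04 (SE 0.12) and -0.16 (SE 0.13). Herpud1, a scaffold of the ligase complex that ER stress strongly induces, was at 2.67, 2.82 and 2.90 in si-lncMGPF and 2.86, 2.92 and 2.85 in si-NC, a log2 change of -0.08 (95% interval -0.31 to 0.15).

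The derlins, membrane proteins through which degraded proteins leave the ER, gave different values on different probes. Derl1 was at 2.67, 2.80 and 2.85 in si-lncMGPF and 2.82, 2.81 and 2.76 in si-NC on its brightest probe (log2 change -0.03). On its other probe Derl1 was at 1.76, 1.97 and 1.67 in si-lncMGPF, below 2.01, 2.05 and 2.00 in si-NC, with no overlap (log2 change -0.22, SE 0.10, adjusted p = 0.352 by limma). Derl2 had 0.04 and 0.07 on 2 probes whose groups overlapped. Its dimmest probe was at -0.31, -0.34 and -0.26 in si-lncMGPF, above -0.40, -0.61 and -0.53 in si-NC (log2 change 0.21, SE 0.09, adjusted p = 0.331 by limma). Over all tested probes 23.0% had groups that did not overlap. Derl3 was well above background on no array and was not tested. Its signal was -6.35, -7.00 and -6.77 in si-lncMGPF and -6.50, -6.28 and -6.12 in si-NC. Of the 7 genes with more than 1 tested probe, 4 had probes of opposite sign.

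Across the list the si-lncMGPF arrays differed more from each other than the si-NC arrays did. The SD was larger in si-lncMGPF than in si-NC for 29 of 31 genes (93.5%, against 85.2% of all named genes), with a median SD of 0.16 in si-lncMGPF and 0.05 in si-NC. Within slide 1, from 1 si-lncMGPF array, the median difference from si-NC was -0.08 and 14 of 31 were positive. For the slide 2 arrays, set against those same si-NC values, the median was 0.12 and 24 of 31 were positive. All named genes had medians of -0.07 within slide 1 and 0.06 on slide 2, with 39.3% and 59.8% positive. For 10 of the 31 genes (32.3%) replicate 1 of si-lncMGPF was below the si-NC range with replicates 2 and 3 above it, against 17.1% of all named genes. These 10 were Xbp1, Hsp90b1, Manf, Creld2, Canx, Fkbp14, Sec61b, Syvn1, Edem1 and Derl2.

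Signal strength moved with this split. When the tested probes were put in 5 bins by mean signal, the brightest bin had a median difference of -0.11 within slide 1 and 0.13 on slide 2, and the dimmest had 0.05 and -0.08. Of the 31 genes 18 were in the brightest bin, with medians of -0.12 within slide 1 and 0.16 on slide 2. The trend of each array against mean signal was then removed, a step added after the data had been seen. It pulls the differences over all tested probes toward 0 at each level of signal, so smaller medians follow in part from the step itself. The medians of the 31 were then -0.01 within slide 1 and 0.05 on slide 2. The median change over all arrays was then 0.02, with 14 of the 31 positive within slide 1 and 19 on slide 2. Genes negative within slide 1 and positive on slide 2 then numbered 8 of the 31, against 13 before. Before the removal 4891 of the 14265 named genes had these signs, and counts over all named genes after it were not computed. The part of signal strength in the split was not tested. Slide 2 holds no si-NC array, so on it an effect of the slide and one of the siRNA cannot be told apart. With slide as a block, which rests on the 1 si-lncMGPF array of slide 1, the median was -0.08 and limma called 0 of the 31, against 0.0406% of all probes in that fit. At an unadjusted p below 0.05 there were 7 of the 31, against 22.1% of all probes in it.

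**Figure D4:**
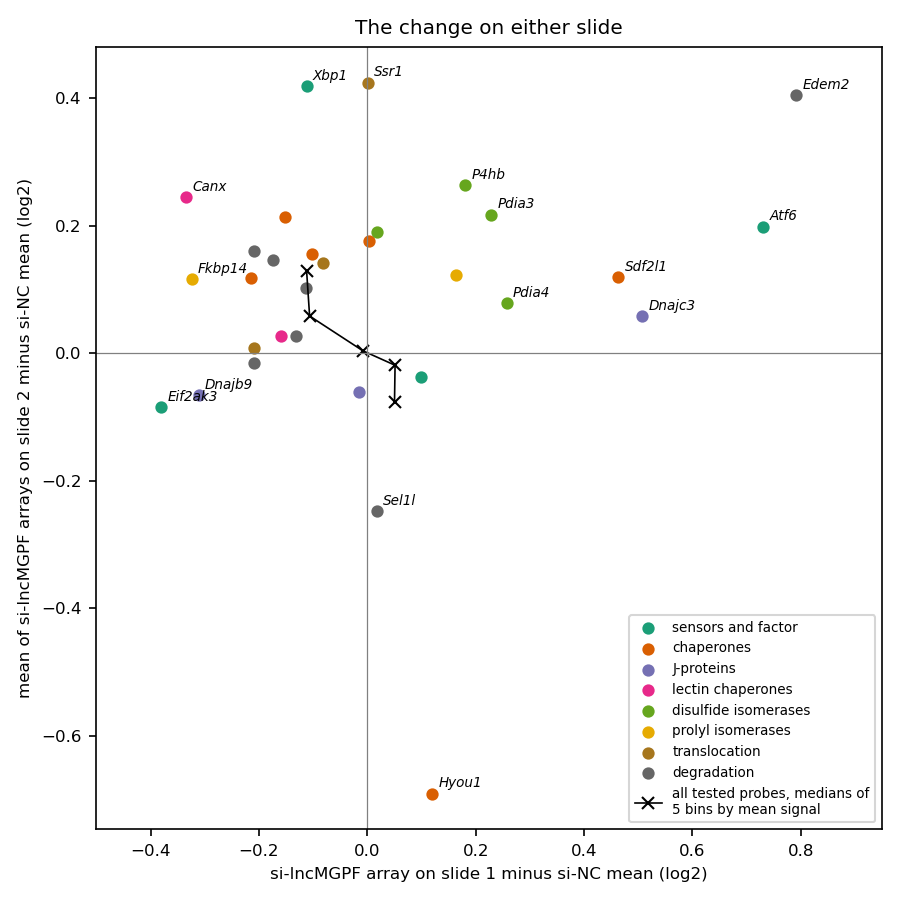
Difference of the si-lncMGPF array on slide 1 from the si-NC mean (x axis, log2) against that of the mean of the 2 si-lncMGPF arrays on slide 2 (y axis, log2) for the 31 tested genes, coloured by role. Both axes share the same si-NC arrays. Crosses joined by a line are the medians of all tested probes in 5 bins of mean signal. At positive values on both axes lie 11 genes, among them the 4 disulfide isomerases, of which Pdia6 is near 0 on the x axis.

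Genes with an ERSE were spread over several roles. Of the 8 tested genes with an ERSE, shown above with their elements, 7 had a positive change, with a median of 0.07. Within slide 1 the median was -0.16 and 3 of 8 were positive, and on slide 2 it was 0.17 and 8 of 8 were positive. Over all named genes 39.3% were positive within slide 1 and 59.8% on slide 2. All of the 8 but Dnajc3 were in the brightest bin of signal. All tested probes of that bin had medians of -0.11 within slide 1 and 0.13 on slide 2. The 16 tested genes whose window held neither ERSE nor ERSE-II had a median of 0.10, with 12 positive, and 0.01 within slide 1 and 0.12 on slide 2. Both genes with an ERSE-II, Herpud1 and Dnajb11, had negative changes on each slide. Most of the 16 genes with neither element were outside the brightest bin. No test was made between these sets, and the part of signal strength in them was not tested.

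Other genes of the compartment, 97 in 4 lists, gave 95 tested genes, and limma called 0 of them higher and 0 lower, with 12 at an unadjusted p below 0.05, where 14.2% of all named genes were. In ER translocation and N-glycosylation 22 of 28 tested genes had a positive change (median 0.12), the highest share of the 4 lists. Ssr2, a partner of Ssr1, was at 1.52, 1.49 and 1.70 in si-lncMGPF and at 1.25, 1.25 and 1.25 in si-NC (log2 change 0.32, SE 0.09, adjusted p = 0.233 by limma). Ostc, of the oligosaccharyltransferase, was at 1.77, 1.56 and 1.81 in si-lncMGPF and 1.43, 1.12 and 1.32 in si-NC (log2 change 0.43, adjusted p = 0.226 by limma). The groups did not overlap for either gene, as for 22.4% of all named genes, and both had positive differences on each slide.

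In ER folding 16 of 26 tested genes were positive (median 0.02). Txndc5, a disulfide isomerase like P4hb, was at 1.85, 1.48 and 1.76 in si-lncMGPF and 1.39, 1.28 and 1.31 in si-NC (log2 change 0.37, SE 0.12, adjusted p = 0.248 by limma). Pdia5, of the same family, ran the other way, at 0.12, -0.59 and -0.39 in si-lncMGPF and 0.43, 0.14 and 0.24 in si-NC (log2 change -0.56, adjusted p = 0.26 by limma). Fkbp11, a prolyl isomerase named after its values were seen, was at 0.79, -0.68 and -2.40 in si-lncMGPF and 1.08, 0.85 and 0.90 in si-NC, and its log2 change of -1.71 (SE 0.72, adjusted p = 0.317 by limma) came with -0.16 within slide 1 and -2.48 on slide 2.

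In degradation 13 of 21 were positive (median 0.06). Ubxn4, which recruits the ATPase VCP to the ER, was at -1.85, -2.95 and -3.48 in si-lncMGPF and -1.34, -1.38 and -1.48 in si-NC (log2 change -1.36, SE 0.38, adjusted p = 0.224 by limma), with -0.45 within slide 1 and -1.82 on slide 2. Edem3, unlike Edem2, was lower on every si-lncMGPF array, at 1.12, 1.13 and 0.90 in si-lncMGPF and 1.40, 1.41 and 1.33 in si-NC (log2 change -0.33, SE 0.10, adjusted p = 0.236 by limma). In UPR signalling, which holds Atf4 and Ddit3, 9 of 20 were positive (median -0.01) and 0 had an unadjusted p below 0.05. The 2 with the smallest p were Stc2, a secreted glycoprotein (log2 change -0.22, SE 0.10, adjusted p = 0.328 by limma), and Wfs1, an ER membrane protein (-0.21, adjusted p = 0.365 by limma).

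**Figure D5:**
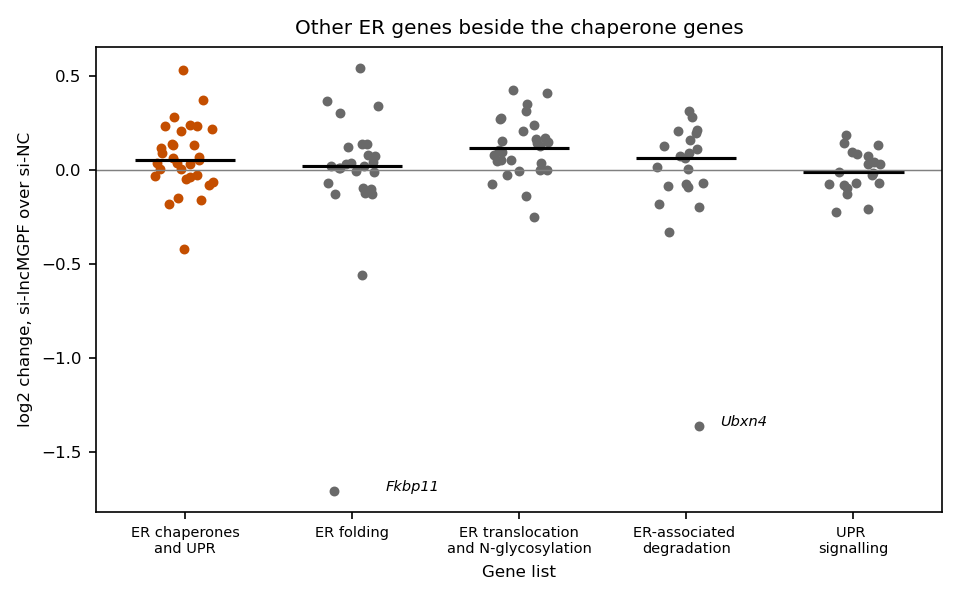
Log2 change, si-lncMGPF over si-NC (y axis), of each tested gene of the ER chaperone and UPR genes described here (left) and of the 4 other lists of the compartment. Each point is a gene and each bar the median of its list. The medians lie between -0.01 and 0.12, and no point passed the threshold.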

How the data were processed

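Total RNA of 6 C2C12 samples, grouped by the siRNA in their titles, was read on 1-colour Agilent arrays. Per the file headers, the scanner tables hold intensity values from Feature Extraction 11.0.1.1, with background subtraction and spatial detrending. The deposited series table held the same intensity values at 44397 of 44397 spots on each array, with medians of 33.7 to 64.4 and no scaling between arrays. What the authors tested is not given in the sources used here.

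Control spots and outlier spots (117 to 134 per array) were left out, no spot was saturated, and the 43020 spots gave 39429 probes. Each array was divided by its own 75th percentile of processed signal before log2, and spots of a probe were averaged. Accessions were matched without versions to RefSeq genes of GRCm38.p6, naming 27234 probes. The file headers name another build, so no probe position is given. Promoter windows came from RefSeq, GRCm38.p6.

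The test was that of limma 3.58.1 (lmFit and eBayes without covariates, R 4.3.3), adjusted over 24661 probes at a threshold of 0.05. It was tried on simulated arrays with equal spread in both groups and no slide effect. That trial does not show how the test behaves with the slide split and unequal spread of these arrays. The members, lists and alternatives were chosen with earlier results of these data known. All 32 members are named, and of each other list its genes past the threshold or else the 2 with the smallest p. Alternatives were quantile and median scaling, normexp (offset 50, on median spot signals), other filters, another prior, slide and replicate blocks, the series table, probe means per gene, and omission of single arrays. Figures were drawn with matplotlib 3.10.9.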

Additional observations from a re-analysis of the deposited data

How the results depend on the processing

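Limma called 0 of the ER genes under every alternative run except that with si-lncMGPF replicate 1 left out, which makes group and slide the same split, 3 of 31 passed (Xbp1, Ssr1 and Hyou1), where 16.6% of all tested probes did. Leaving out single arrays thus gave 0 to 3 ER genes, 0 to 13 of the other ER and UPR genes, and 0 to 4105 of all tested probes (1877 to 8715 at an unadjusted p below 0.05). The 4105 came without si-lncMGPF replicate 1, with 4 called without si-lncMGPF replicate 2 and 0 without any 1 of the other arrays. The lowest adjusted p of an ER gene under any other alternative was 0.0860, with the slide 1 arrays alone. Over all probes limma called 6 after quantile normalization, 0 with no filter on dim probes (5277 at an unadjusted p below 0.05), 10 with slide as a block and 1 with the slide 1 arrays alone (added after seeing the data), against 26. The median change of the ER genes was -0.0818 with slide as a block and with the slide 1 arrays alone, and -0.0383 with slide as a random block, against 0.05; the cause was not tested.

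Of the 31 genes, 15 kept their direction in all alternatives that gave them a value. With slide as a block, and so with slide 1 alone, 11 changed sign, namely Sec61b (-0.082), Hsp90b1 (-0.21), Canx (-0.33), Xbp1 (-0.11), Manf (-0.10), Syvn1 (-0.21), Creld2 (-0.15), Derl2 (-0.17), Edem1 (-0.11), Sel1l (0.018) and Hyou1 (0.12). With slide as a random block 9 did, namely Sec61b (-0.038), Hsp90b1 (-0.15), Canx (-0.22), Xbp1 (-0.0082), Manf (-0.051), Syvn1 (-0.14), Creld2 (-0.081), Derl2 (-0.11) and Edem1 (-0.071). After quantile normalization this held for Hsp90b1 (-0.038), after normexp for Hsp90b1 (-0.058), Fkbp14 (0.0069) and Ern1 (-0.041), and with the mean of its probes for Fkbp14 (0.091). With the signal trend removed it held for Sec61b (-0.020), Hsp90b1 (-0.078) and Canx (-0.00053).

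Leaving out 1 array gave ranges that crossed 0 for Hsp90b1 (-0.056 to 0.12), Sec61a1 (-0.12 to 0.0077), Calr (-0.090 to 0.026), Canx (-0.060 to 0.24), Syvn1 (-0.035 to 0.16), Derl1 (-0.066 to 0.028), Derl2 (-0.045 to 0.15), Fkbp14 (-0.11 to 0.12), Edem1 (-0.020 to 0.10) and Ern1 (-0.038 to 0.093).

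The labels give both groups replicate numbers 1 to 3. Deviations of same-numbered arrays correlated at 0.18, 0.32 and -0.06, and 4 of 6 arrays correlated best with their own number. Neither these values nor the labels settle whether the numbers pair the samples. The main fit took the samples as unpaired. With replicate number as a block, limma called 0 of all probes (4430 at an unadjusted p below 0.05) and 0 of the ER genes (3 at an unadjusted p below 0.05), and the median change was 0.05. The widest intervals were those of Atf6, Hyou1 and Edem2, and 3 arrays a group limit the precision of all values.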

Other observations

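Outside the list of 32 ER genes, 28 genes held an ERSE in their promoter window and 9 of them were tested. Limma called 0 of the 9, and 5 had a positive change. The 3 that work in or for the ER were positive on both slides, but they were picked out after their values were seen. Their common sign therefore carries no weight. The others were Xlr3b (0.31), Hnrnpa3 (0.19), Pan2 (-0.02), Spats2l (-0.09), Zfp57 (-0.28) and Olfr59 (-0.65). Of these, Xlr3b was positive on both slides too, with 0.44 within slide 1 and 0.24 on slide 2. Ero1b, an oxidase that recharges the disulfide isomerases, was also in the ER folding list above. It had a log2 change of 0.30 (SE 0.18, adjusted p = 0.429 by limma), with 0.55 within slide 1 and 0.18 on slide 2. Alg12, a mannosyltransferase of glycan assembly, had 0.19 (SE 0.15), and Calr4, a relative of calreticulin, had 0.15 (SE 0.12).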
